A study of Mus musculus with 9 samples.

Results

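The Schwann cell and myelin genes described here are Pmp2, Mbp, Pmp22, Prx, S100b and Sox10, 6 of the 23238 gene symbols counted in mouse gastrocnemius muscle. They were chosen by symbol, with earlier results of these data known. All 6 were present in the count tables, and all 6 passed the filter on low counts that left 12859 genes for testing. The 9 libraries came from female C57BL/6 mice bought at 4 weeks of age, in 3 groups of 3. The RP group was given cisplatin, a platinum drug that damages DNA, in 4 intraperitoneal injections of 3 mg/kg on alternate days, together with RP at 100 mg/kg by mouth for 9 days; the series title names an extract of the peony Paeonia lactiflora. The Cisplatin group had the same injections with distilled water by mouth. The Normal group had 4 saline injections and distilled water by mouth. No group analysed here received RP without cisplatin, so the comparison of RP with Cisplatin concerns cisplatin-treated animals only. The labels do not say that each sample was its own mouse, and p-values therefore measure the spread between these samples.

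Schwann cells are the glia of peripheral nerve. Myelinating Schwann cells wrap axons in a sheath of stacked membrane, whose compact part is held together by a small set of abundant proteins, and the transcription factor Sox10 is needed to form the lineage and to keep myelin genes on. In muscle these cells lie in the intramuscular branches of the motor and sensory nerves, and a separate, non-myelinating kind covers the nerve terminal at the neuromuscular junction. Whole muscle is mostly muscle fibre, so that their transcripts are a minor part of each library.

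Libraries held 8196030 to 10678342 counts, and the 6 genes together gave 249 to 2080 of them. Values below are CPM, counts scaled to a common library total, with TMM, a trimmed-mean correction of that total. QuantSeq reads 1 tag near the 3′ end of each transcript, so levels were not divided by gene length. Such tags do not separate transcripts that differ upstream, among them those from the alternative promoters of Pmp22 and Mbp. Muscle fibre markers such as Ckm and Myh4 were all present, and the 10 of them listed summed to 108258 to 125155 CPM in RP, 70488 to 85913 CPM in Cisplatin and 101016 to 117626 CPM in Normal. Of the oligodendrocyte markers, Mog and Opalin had 0 counts over the 9 libraries, a result that up to 3 counts in all would still allow, and Mobp averaged 0.0112 CPM.

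Promoter sequence from RefSeq on GRCm38.p6 is shown for 3 of the 6 genes, Pmp22, Prx and S100b. These 3 are among the 5 genes called in both comparisons with Cisplatin. Windows of the other genes are not given here. Each stretch is the 250 bases before an annotated transcription start, on the plus strand and 5′ to 3′, with motif matches in capitals. Pmp22 has several annotated starts, and the windows before its 2 most upstream ones are given.
Pmp22, first start, chr11:63128732-63128981: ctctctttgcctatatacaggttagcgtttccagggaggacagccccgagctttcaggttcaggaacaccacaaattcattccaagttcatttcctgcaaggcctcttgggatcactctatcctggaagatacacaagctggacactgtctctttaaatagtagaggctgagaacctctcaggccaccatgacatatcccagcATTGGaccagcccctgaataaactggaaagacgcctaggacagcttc
Pmp22, second start, chr11:63131207-63131456: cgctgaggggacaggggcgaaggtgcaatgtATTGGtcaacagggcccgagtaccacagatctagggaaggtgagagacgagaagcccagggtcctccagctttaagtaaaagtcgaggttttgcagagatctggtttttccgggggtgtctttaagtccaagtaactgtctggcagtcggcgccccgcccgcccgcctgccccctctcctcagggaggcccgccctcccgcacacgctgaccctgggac
Prx, chr7:27499074-27499323: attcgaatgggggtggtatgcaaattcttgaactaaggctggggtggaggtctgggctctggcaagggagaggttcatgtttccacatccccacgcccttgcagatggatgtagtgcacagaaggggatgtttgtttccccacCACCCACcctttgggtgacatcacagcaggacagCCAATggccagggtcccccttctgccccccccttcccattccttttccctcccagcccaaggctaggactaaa
S100b, chr10:76253586-76253835: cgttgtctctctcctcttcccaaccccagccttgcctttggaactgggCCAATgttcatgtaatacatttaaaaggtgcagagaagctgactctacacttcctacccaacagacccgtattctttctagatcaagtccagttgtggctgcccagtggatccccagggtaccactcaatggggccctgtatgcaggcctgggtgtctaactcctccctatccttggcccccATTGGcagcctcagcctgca
The search covered both strands, and no match overlapped another. The promoter element CCAAT stood on either strand in each of the 4 windows shown but in neither of the windows before the other 2 Pmp22 starts, and it is found in 33.8% of all 32851 promoter windows of that length. The core GTGGGNG, which EGR proteins bind, was matched in the Prx window on the minus strand and is found in 28.1% of all windows. Of the sequences that SOX proteins can bind, ACAAAG was in none of these 4 windows and is in 16.5% of all windows. A variant of that site, written ACAATG, was likewise unmatched here and is in 10.7% of all windows. The box TATAAA was also unmatched, and is in 12.4% of all windows. G and C made up 48.8% of the first Pmp22 window, 61.2% of the second, 64.8% and 73.6% of the 2 not shown, 56.4% of that of Prx and 53.6% of that of S100b, against a median of 52.4% over all windows.

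Most of these genes were lower in Cisplatin than in Normal muscle. Pmp2, Mbp, S100b, Prx and Pmp22 fell, and Sox10 did not pass the test. The falls ran from 2.20-fold for Pmp22 to 7.13-fold for Mbp, and Pmp2 was reduced to 2 counts in the whole Cisplatin group. Thus 5 of the 6 genes fell and 0 rose, while 28.2% of all 12859 genes fell, 26.3% rose and 54.5% were called in either direction (edgeR's quasi-likelihood test, Benjamini-Hochberg adjusted p under 0.05). Their median log2 fold change was -1.73, against -0.08 over all genes. For Pmp2, Mbp, Pmp22 and S100b each Cisplatin library was below each Normal library, as for 31.9% of all genes; for 0 of the 6 was each Cisplatin library above, as for 30.3% of all genes.

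With RP given beside cisplatin, the same 5 genes were higher than with cisplatin alone. Of the 6 genes, 5 rose and 0 fell, while 24.6% of all genes rose, 24.2% fell and 48.8% were called in either direction. The median log2 fold change was 1.83, against 0.07 over all genes. The RP libraries were all above the Cisplatin libraries for 5 of the 6 genes, as for 29.0% of all genes, and all below for 0, as for 27.8%. Both comparisons use the Cisplatin libraries, so they are not independent of each other. Against Normal muscle the RP group gave 0 calls among the 6 genes, while 0.505% of all genes were called in either direction, 0.187% as higher and 0.319% as lower. RP and Normal overlapped for each of the 6 genes; 9.65% of all genes had each RP library above each Normal library and 9.53% had each below. In bulk muscle, fewer Schwann cells and less of each transcript per cell cannot be told apart, here and in all results below.

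**Figure D1:**
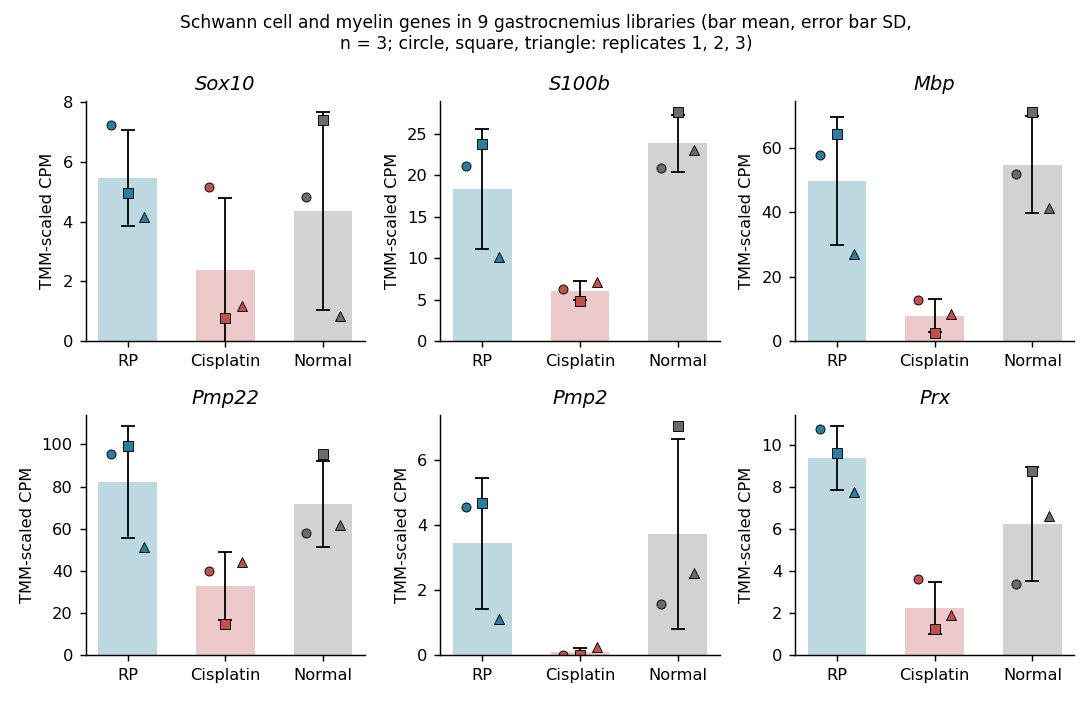
TMM-scaled CPM of each of the 6 genes in the 9 libraries, by group; bars are means of 3 libraries, error bars are SDs (cut off at 0) and symbols are the replicates. Cisplatin libraries lie below every RP library for 5 genes, and the exception is Sox10, whose Cisplatin replicate 1 is at 5.17 CPM.

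Sox10, the lineage's transcription factor (chromosome 15, 79154908 to 79165240, minus strand of GRCm38), was at 7.24, 4.97 and 4.14 CPM in RP, at 5.17, 0.761 and 1.19 CPM in Cisplatin and at 4.83, 7.40 and 0.842 CPM in Normal. One library in the Cisplatin group was as high as the RP and Normal libraries, one in Normal was as low as the other Cisplatin libraries, and the groups overlapped. The log2 fold change was -0.90 ± 0.69 in Cisplatin against Normal (SE, adjusted p = 0.291) and 1.22 ± 0.68 in RP against Cisplatin (adjusted p = 0.156). Its 95% intervals, -2.39 to 0.59 and -0.25 to 2.69, include changes as large as those of most of the other 5 genes. Without Cisplatin replicate 1 both differences were called, at -2.16 (adjusted p = 0.0249, the lowest over the alternatives, whose highest was 0.79) and 2.48 (adjusted p = 0.0138, with 0.399 as the highest). Without Normal replicate 2 the first was -0.27, without Normal replicate 3 it was -1.37, and without Cisplatin replicate 2 the log2 fold changes were -0.45 and 0.77. Without Cisplatin replicate 3 the first was -0.58.

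S100b, a calcium-binding protein that serves as a general Schwann cell marker and is also made by adipocytes (chromosome 10, 76253853 to 76261159, plus strand), was at 21.1, 23.8 and 10.2 CPM in RP, at 6.23, 4.85 and 7.14 CPM in Cisplatin and at 20.9, 27.6 and 23.1 CPM in Normal. Each Cisplatin library was below all others. S100b had the smallest spread of the 6 genes within Cisplatin relative to its mean, 6.07 ± 1.15 CPM (SD, n = 3). It fell by 1.98 ± 0.29 on the log2 scale in Cisplatin against Normal (adjusted p = 6.76e-05), and rose by 1.60 ± 0.29 in RP against Cisplatin (adjusted p = 0.000474).

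Mbp, myelin basic protein, which binds the cytoplasmic faces of the myelin membrane to each other, lies on chromosome 18 at 82475146 to 82585637, plus strand. It was at 57.7, 64.1 and 27.1 CPM in RP, at 12.6, 2.38 and 8.45 CPM in Cisplatin and at 51.8, 71.0 and 41.4 CPM in Normal. The lowest RP library was above the highest Cisplatin library by more than the whole range of the Cisplatin group. The log2 fold change was -2.83 ± 0.44 in Cisplatin against Normal (adjusted p = 0.000126) and 2.69 ± 0.44 in RP against Cisplatin (adjusted p = 0.000240).

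Pmp22, a membrane protein of compact myelin whose gene dosage underlies an inherited neuropathy in humans, is transcribed in fibroblasts and other cells too (chromosome 11, 63128982 to 63159547, plus strand). Its windows upstream of the starts are those shown above. It was at 95.5, 99.4 and 51.5 CPM in RP, at 39.7, 14.5 and 44.3 CPM in Cisplatin and at 58.1, 95.4 and 61.5 CPM in Normal. Each Cisplatin library was below all others, and the lowest RP library, at 51.5 CPM, stood close to the highest Cisplatin library, at 44.3 CPM. Pmp22 fell by 1.13 ± 0.35 on the log2 scale in Cisplatin against Normal (adjusted p = 0.0140), and rose by 1.33 ± 0.35 in RP against Cisplatin (adjusted p = 0.00647). The fall was not called without Normal replicate 2, at -0.86 (adjusted p = 0.0608, the highest over the alternatives, whose lowest was 0.00035).

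Pmp2, a fatty acid binding protein of the myelin membrane (chromosome 3, 10179851 to 10183929, minus strand), was the scarcest of the 6. It gave 44, 47 and 11 counts in RP, 0, 0 and 2 counts in Cisplatin and 13, 61 and 21 counts in Normal. The corresponding levels were 4.55, 4.67 and 1.11 CPM in RP, 0, 0 and 0.238 CPM in Cisplatin and 1.57, 7.05 and 2.53 CPM in Normal. The Cisplatin libraries without a count allow up to 0.352 and 0.285 CPM, by a limit of 3 counts per library, and both limits are below the lowest RP and Normal libraries. Summed over groups, the level was 47.2 times higher in RP than in Cisplatin (exact 95% counting interval 12.7 to 395) and 51.6 times lower in Cisplatin than in Normal (13.9 to 433). The differences were called in both comparisons (adjusted p = 0.000911 for RP against Cisplatin and 0.000611 for Cisplatin against Normal). The fitted log2 fold changes of 5.31 ± 1.04 and -5.42 ± 1.04 rest on those 2 counts and on the prior count of the fit. Without Cisplatin replicate 3, which held both, the second was -8.10. In GENCODE M21 the gene model Gm37389 shares 1224 exon bases with Pmp2 on the same strand, and its reads could not be told apart from those of Pmp2.

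Pmp2 lies in a row of fatty acid binding protein genes on chromosome 3. Fabp4, the adipocyte member that starts at 10204088, was at 888, 1123 and 1081 CPM in RP, at 563, 605 and 303 CPM in Cisplatin and at 885, 2167 and 1139 CPM in Normal. Fabp4 fell by 1.51 ± 0.30 in Cisplatin against Normal on the log2 scale (adjusted p = 0.000902), and rose by 1.07 in RP against Cisplatin (adjusted p = 0.00961). Fabp5, at 10012548 to 10016607 and expressed in many cell types, fell by 2.56 and rose by 1.94 in the same comparisons (adjusted p = 4.57e-05 and 0.000541). Fabp9 and Fabp12 did not pass the filter. Fabp3, the muscle form encoded elsewhere in the genome, was at 839 ± 241 CPM in RP, 1057 ± 122 CPM in Cisplatin and 741 ± 271 CPM in Normal and was not called (adjusted p = 0.267 in RP against Cisplatin and 0.0854 in Cisplatin against Normal). In Cisplatin against Normal, 1 riser of this family was called by DESeq2, with no filter, with the replicate block or without Normal replicate 3. Of those tested by edgeR, only Fabp3 had a positive estimate there, 0.51.

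Prx encodes periaxin, a scaffold that links the myelinating Schwann cell's membrane to its cytoskeleton and is also found in some endothelial cells (chromosome 7, 27499324 to 27520214, plus strand). It was at 10.8, 9.63 and 7.77 CPM in RP, at 3.64, 1.24 and 1.90 CPM in Cisplatin and at 3.38, 8.79 and 6.62 CPM in Normal. RP and Cisplatin did not overlap, whereas Normal replicate 1 was below Cisplatin replicate 1. The log2 fold change was 2.07 ± 0.41 in RP against Cisplatin (adjusted p = 0.000966) and -1.49 ± 0.41 in Cisplatin against Normal (adjusted p = 0.00794). An antisense model, Gm15541, shares 300 exon bases with Prx, and the strand setting of the counting is not given in the sources used here.

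**Figure D2:**
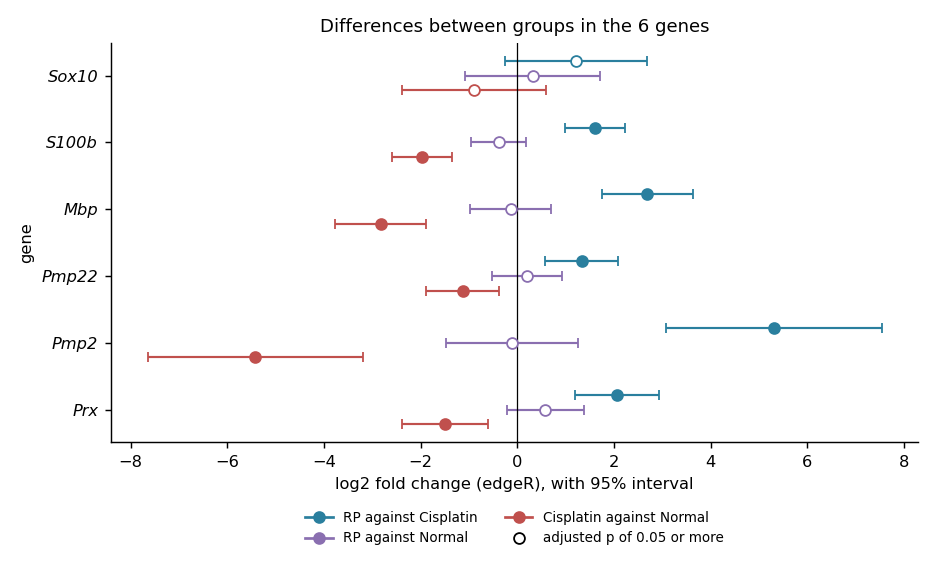
Log2 fold change with its 95% interval for each of the 6 genes (rows) in RP against Cisplatin, RP against Normal and Cisplatin against Normal; filled points have an adjusted p under 0.05. Intervals of 5 genes lie above 0 in RP against Cisplatin and below 0 in Cisplatin against Normal, and every interval of RP against Normal includes 0.

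In RP against Normal, 0 of the 6 genes had an adjusted p under 0.05 by edgeR, and 0 had an unadjusted p under 0.05. DESeq2 and limma-voom also called 0. The estimates were -0.11 for Pmp2, -0.14 for Mbp, 0.20 for Pmp22, 0.58 for Prx, -0.38 for S100b and 0.32 for Sox10 on the log2 scale. These do not show that the groups are alike, since the 95% intervals were -1.48 to 1.25 for Pmp2, -0.98 to 0.70 for Mbp, -0.53 to 0.93 for Pmp22 and -0.22 to 1.38 for Prx. For S100b the interval was -0.95 to 0.19, and for Sox10 it was -1.08 to 1.72. The order of the group means was RP, Normal, Cisplatin for Pmp22, Prx and Sox10, and Normal, RP, Cisplatin for Pmp2, Mbp and S100b. None of these orders between RP and Normal went beyond the spread between libraries.

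Within groups the genes varied together to unequal degrees. With group means removed, Pearson's r over the 9 libraries, given as a description, ran from 0.28 (S100b with Sox10) to 0.95 (Mbp with Pmp22), with a median of 0.66 over 15 pairs, and Sox10 with Pmp2 was at 0.33. Normal replicate 2 held the highest value in Normal for 6 of 6 genes, RP replicate 3 the lowest value in RP for 6 of 6, and Cisplatin replicate 2 the lowest value in Cisplatin for 5, with Pmp2 tied at 0 counts. Summed over the 6 genes, the level was 197, 207 and 102 CPM in RP, 67.3, 23.7 and 63.2 CPM in Cisplatin and 141, 217 and 136 CPM in Normal. Each Cisplatin sum lay below each RP and Normal sum. The spread within RP, 102 to 207 CPM, was wider than the gap between RP replicate 3 and the highest Cisplatin library.

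The make-up of that sum also differed. Mbp made up 29.0% of it on average in RP (26.7 to 31.0%), 14.0% in Cisplatin (at most 18.7%) and 33.3% in Normal (30.4 to 36.9%). Pmp22 made up 49.1% in RP (48.1 to 50.5%), 63.4% in Cisplatin (59.0 to 70.1%) and 43.5% in Normal (41.3 to 45.2%). For both genes the Cisplatin shares were outside the range of the other 2 groups. The ratio of Mbp to Pmp22 was 0.604, 0.644 and 0.527 in RP, 0.317, 0.164 and 0.191 in Cisplatin and 0.892, 0.744 and 0.673 in Normal. None of the 3 groups overlapped another in this ratio. The mean log2 ratio in RP minus that in Cisplatin was 1.46, in Cisplatin minus Normal it was -1.83, and in RP minus Normal it was -0.37. In each case the two-sided exact permutation p was 0.10, the smallest that 3 libraries against 3 can give, so no ratio could pass 0.05. Across 12 such tests, of Mbp, S100b, Prx and Sox10 to Pmp22 in 3 comparisons, p ran from 0.10 to 0.90. The ratio of S100b to Pmp22 in RP against Normal (-0.63) was also at 0.10 without overlap. So was that of Prx to Pmp22 in RP against Cisplatin (0.76). These ratios were chosen after the values had been seen.

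**Figure D3:**
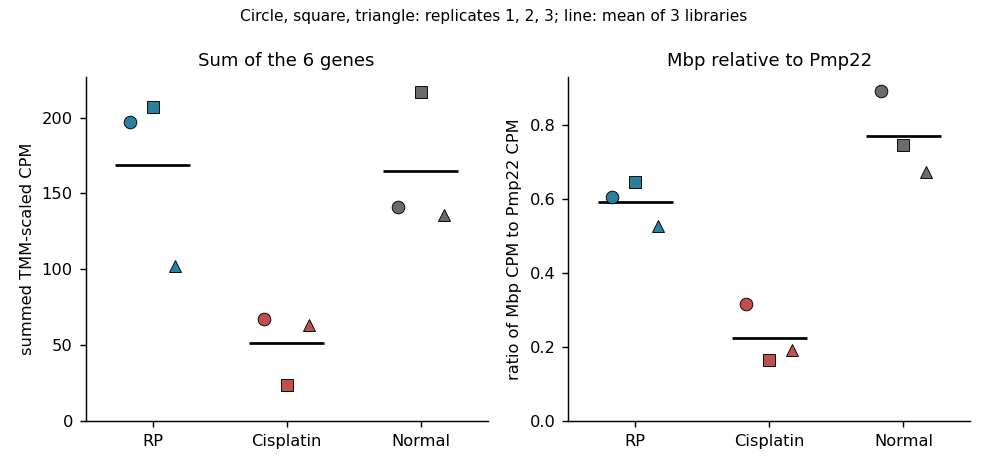
Left, summed TMM-scaled CPM of the 6 genes in each library; right, the ratio of Mbp CPM to Pmp22 CPM; symbols are replicates and lines are means of 3 libraries. Cisplatin libraries are lowest in both panels, with sums of 23.7 to 67.3 CPM and ratios of 0.164 to 0.317.

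Other genes of the myelin sheath and the paranode, where the sheath attaches to the axon, were called in both directions. Where a pair of log2 values is given for a gene below, Cisplatin against Normal comes before RP against Cisplatin. Of 20 tested, 8 fell and 2 rose in Cisplatin against Normal (median -1.16), and 11 rose and 1 fell in RP against Cisplatin (median 1.24). The fallers were 40.0% of the list, against 28.2% of all genes, and the risers in RP against Cisplatin were 55.0%, against 24.6% of all genes. Itgb4, the integrin subunit that binds Schwann cells to their basal lamina, fell by 2.02 and rose by 2.34, and the membrane skeleton gene Epb4.1l2 fell by 1.67 and rose by 1.16. The dystroglycan gene Dag1, which muscle fibres also transcribe, went the other way, at 0.57 and -0.68. The count of genes that fell was 5, near the share of all genes, without Cisplatin replicate 3, where 3197 of all 13127 genes fell. The count that rose in Cisplatin was 1 without Normal replicate 1, 2 or 3 or Cisplatin replicate 1 or 3.

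Of 8 enzymes of myelin lipid synthesis and turnover, 7 were tested. In Cisplatin against Normal 4 fell and 1 rose (median -0.68), and in RP against Cisplatin 3 rose and 1 fell (median 0.97). The fallers were 57.1% of those tested, against 28.2% of all genes, and the risers in RP against Cisplatin 42.9%, against 24.6%. Ugt8a, which makes the galactolipid of myelin, was at 2.88 ± 1.33 CPM in RP, 0.489 ± 0.210 CPM in Cisplatin and 2.41 ± 1.36 CPM in Normal; it fell by 2.30 (adjusted p = 0.00922) and rose by 2.55 (adjusted p = 0.00521). Aspa, which splits N-acetylaspartate, fell by 2.42 and rose by 1.92, and the fatty acid elongase gene Elovl1 fell by 0.68 and rose by 0.97. Degs1, a desaturase of ceramide synthesis, fell by 0.46. The ceramide synthase gene Cers2 went the other way, at 0.48 and -0.50. The count of fallers was 2 of 7, near the share of all genes, without any 1 of the Normal or Cisplatin libraries and without RP replicate 1, and also by limma-voom. The single riser, Cers2, was lost without Normal replicate 1, and the single faller in RP against Cisplatin without RP replicate 1.

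Regulators of Schwann cells and their signals from axons showed fallers in Cisplatin and risers in RP against Cisplatin at shares near those of all genes. Of 14 listed, 12 were tested, of which 3 fell and 1 rose in Cisplatin against Normal (median -0.55), and 3 rose and 1 fell in RP against Cisplatin (median 0.31). Both counts of 3 are 25.0% of the genes tested, near the 28.2% of all genes that fell and the 24.6% that rose, and nothing is read from the list as a whole. Egr2, the factor that drives myelination downstream of Sox10, was at 1.76 ± 1.09 CPM in RP, 0.615 ± 0.368 CPM in Cisplatin and 3.26 ± 1.78 CPM in Normal. It fell by 2.42 in Cisplatin against Normal (adjusted p = 0.00981), and its 1.53 in RP against Cisplatin was not called (adjusted p = 0.0908). Adgrg6, a receptor needed to start myelination, fell by 1.73 and rose by 1.51. Zeb2, a transcription factor of Schwann cell maturation, fell by 0.76. Gpr37l1 rose by 2.10 and Lgi4, a secreted protein of myelination, by 0.96 in RP against Cisplatin. Yap1, a growth coactivator present in many cells, rose by 0.91 and fell by 0.80. Erbb3, the neuregulin receptor of the lineage, averaged 0.0977 CPM and was not tested. The count that rose in RP against Cisplatin was 1 without RP replicate 1 or 2, and 5 with library size as the only scaling.

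Markers of non-myelinating, immature and repair Schwann cells were mostly scarce, and 10 of 17 were tested. In Cisplatin against Normal 6 fell and 1 rose (median -1.23), and in RP against Cisplatin 3 rose and 2 fell (median 1.24). The fallers in Cisplatin were 60.0% of those tested, against 28.2% of all genes, whereas the shares called in RP against Cisplatin, 30.0% risen and 20.0% fallen, were near the 24.6% and 24.2% of all genes. Ngfr, the low-affinity neurotrophin receptor, was at 4.03, 2.88 and 4.84 CPM in RP, at 0.470, 0.190 and 0.595 CPM in Cisplatin and at 2.05, 1.39 and 3.37 CPM in Normal. It fell by 2.44 (adjusted p = 0.00259) and rose by 3.22 (adjusted p = 0.000344). The cell adhesion gene Ncam1, which muscle fibres can also express, fell by 1.88 and rose by 1.29, and the lineage factor Foxd3 fell by 1.17 and rose by 1.60. Gap43, a growth cone protein, fell in Cisplatin against Normal, with 1 count in Cisplatin and 36 in Normal. Jun, the factor that drives the repair state and a general stress gene, rose by 0.59 and fell by 0.64 in these comparisons. The neurotrophin gene Bdnf fell by 1.97 in RP against Cisplatin. Leaving out any 1 library lowered the fallers in Cisplatin from 6 to 4 or 5. The riser in Cisplatin, Jun, was lost without Normal replicate 1 or Cisplatin replicate 2. The fallers in RP against Cisplatin numbered 1 without Cisplatin replicate 2 or RP replicate 2.

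In RP against Normal, 0 genes of these 4 lists were called by edgeR, and 1, 0, 1 and 4 had an unadjusted p under 0.05 in the order given. DESeq2 called 1 gene, a faller in the non-myelinating list, and limma-voom called 0.

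**Figure D4:**
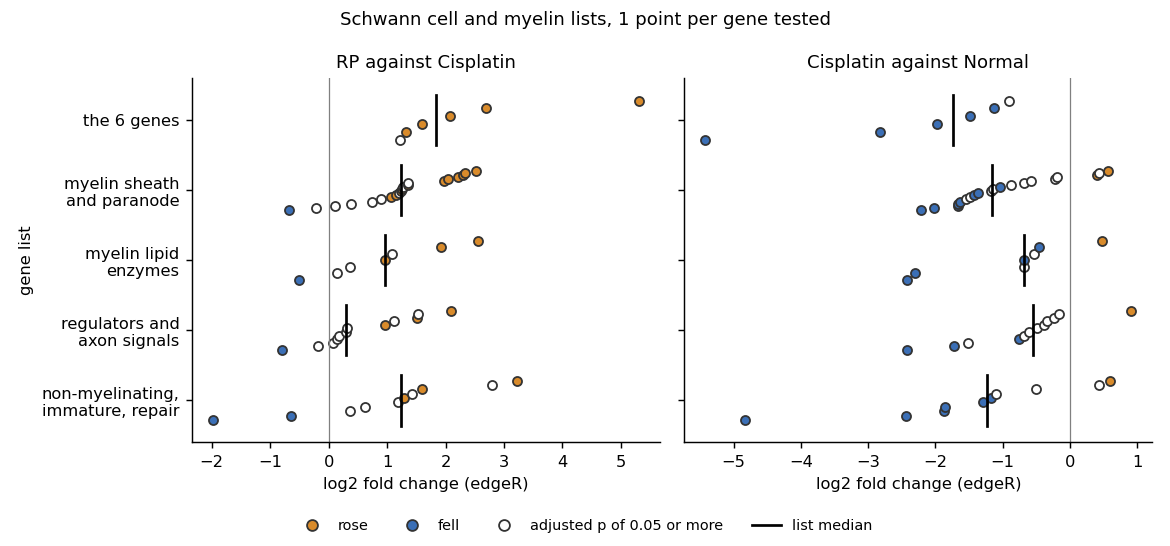
Log2 fold change of each tested gene (1 point) in the 6 genes and in 4 further Schwann cell lists, for RP against Cisplatin and Cisplatin against Normal; colour gives the call and the black line the list median. List medians are above 0 in RP against Cisplatin and below 0 in Cisplatin against Normal.

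Markers of fibroblasts and adipocytes mostly changed in the directions of the 6 genes. Called muscle fibre and perineurial markers also went in those directions. The endothelial, neuronal and melanocyte lists held calls in both directions in Cisplatin against Normal. All-gene shares for the counts below are 28.2% fallen in Cisplatin against Normal and 24.6% risen in RP against Cisplatin. Of 10 muscle fibre markers, 6 fell and 0 rose in Cisplatin against Normal, and 6 rose and 0 fell in RP against Cisplatin. The other 4, Myh4 among them, were not called. DESeq2 called 1 riser in Cisplatin against Normal. Fibroblast markers summed to 3543 to 5393 CPM in RP, 657 to 1318 CPM in Cisplatin and 5114 to 7610 CPM in Normal, and 10 of 11 fell in Cisplatin against Normal while 11 of 11 rose in RP against Cisplatin. In RP against Normal 1 of them, the collagen gene Col1a2, fell by 1.85. Adipocyte markers summed to 2299 to 2728 CPM in RP, 922 to 1446 CPM in Cisplatin and 1360 to 4527 CPM in Normal, with 9 of 10 falling and 9 of 10 rising in these comparisons, while Plin4, a lipid droplet gene, went the other way (1.01 and -0.86). In Normal, replicate 2 was highest in Fabp4, at 2167 CPM, and in each of the 6 genes. Endothelial markers summed to 347 to 459 CPM in RP, 258 to 356 CPM in Cisplatin and 439 to 492 CPM in Normal, with 6 of 10 falling and 5 of 10 rising, 3 without Cisplatin replicate 2 or RP replicate 2. The tight junction gene Cldn5 showed the largest change of that list and in the opposite directions (1.92 and -1.86). The part of fibroblasts, adipocytes and endothelial cells in the results for Pmp22, S100b and Prx, which such cells also express, was not tested. Of the endothelial genes, Pecam1 and Cdh5, at -0.08 and 0.13 in Cisplatin against Normal, and Emcn, at -0.28, were not called in either comparison. Kdr (-1.09), Tek (-1.40), Egfl7 (-0.93), Vwf (-1.05), Tie1 (-0.72) and Ptprb (-1.29) fell in Cisplatin against Normal. All of these except Tie1 rose in RP against Cisplatin.

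Perineurial markers, of the sheath around nerve bundles, summed to 74.9 to 109 CPM in RP, 63.0 to 78.4 CPM in Cisplatin and 90.2 to 101 CPM in Normal; of 5 tested, Cldn1 (-3.96) and Tjp1 (-0.88) fell in Cisplatin and rose in RP against Cisplatin (3.77 and 0.60), and the other 3 were not called. Without Cisplatin replicate 2 or RP replicate 1, 1 perineurial gene rose. Of 10 neuronal markers 3 were tested: Stmn2 fell by 4.43 and rose by 3.38, Prph fell in Cisplatin, and Uchl1 rose by 2.45 and fell by 3.15. Nefh, Prph and Chat had 0 counts in Cisplatin, where up to 3 counts over the group would still be allowed. Chat also had 0 counts in RP and averaged 0.0268 CPM over the 9 libraries. The neuronal sum, 10.1 to 14.8 CPM in RP, 23.8 to 52.2 CPM in Cisplatin and 20.5 to 25.0 CPM in Normal, overlapped between Cisplatin and Normal. Uchl1, which muscle fibres can also express, averaged 15.8 CPM over the 9 libraries. Among melanocyte markers, which bear on Sox10 since melanocytes express it, Mlana had 0 counts over the 9 libraries and Tyr, Tyrp1 and Dct did not pass the filter. Mitf and Pmel did, at means of 35.3 and 24.9 CPM. Mitf, a transcription factor also found in other cells, fell by 0.38 in Cisplatin against Normal. Pmel rose by 0.53 in that comparison and fell by 0.37 in RP against Cisplatin. The Mitf fall was not called by DESeq2, under RLE scaling, with no filter or without any 1 of the Normal or RP libraries, among others. The Pmel fall was not called with library size only, no filter, the replicate block or without Cisplatin replicate 2 or 3, among others. The 6 melanocyte markers summed to 54.0 to 61.5 CPM in RP, 59.5 to 67.1 CPM in Cisplatin and 59.1 to 69.3 CPM in Normal, and their part in the Sox10 values was not tested.

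Genes whose pattern was most like that of each member were ranked by Pearson's r on log2(CPM + 1) over the 9 libraries, among 9097 named genes at a mean of at least 5 CPM; the libraries share their groups, so that r is a description. For Pmp22, genes among the 5 highest were Mcf2l (r = 0.949), Mbp, Zfp521 and Tnk1 (0.944 to 0.940). For Mbp the 5 highest were Atp2b4 (r = 0.988), Sema3b, Pde2a, Srebf1 and Pln (0.986 to 0.972). For S100b they were Fam69b (r = 0.992), B4galt6, Tppp, Fez2 and Pnck (at most 0.980), and for Prx Fam117b (r = 0.976), Kank3, Ly6c1, Tgtp2 and Lcmt1 (0.970 to 0.959). Pmp2 and Sox10 were below the level set for this ranking.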

How the data were processed

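Gene expression was measured in 9 gastrocnemius samples. Trizol RNA, 500 ng per library, went into Lexogen QuantSeq 3′ libraries, per the labels' protocols. The authors deposited raw read counts, 1 value per gene symbol and sample. Bowtie2, edgeR and the mm10 build are named in the submitters' processing notes; of their versions, and of the counting program with its annotation and strand setting, nothing is given in the sources used here.

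Entries with a repeated symbol (79, under 35 symbols) were added up, which left 23238 symbols. The test was edgeR 4.0.16 in R 4.3.3 on all 9 libraries: filterByExpr by group, TMM scaling, glmQLFit with 1 coefficient per group, and glmQLFTest per comparison, with Benjamini-Hochberg adjustment over 12859 genes and a threshold of 0.05. SEs were derived from the F statistic (log2 fold change over its root). Counting intervals (exact, 95%) and limits of 3 counts cover counting error only, since the labels name no molecular identifiers. Replicate pairs were compared for copies, and none was found (chi-square over degrees of freedom 11.3 to 28.9). With library size as the only scaling, the all-gene median log2 fold change was 0.21 for RP against Cisplatin, 0.06 for RP against Normal and -0.15 for Cisplatin against Normal; with TMM it was 0.07, -0.01 and -0.08.

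The 6 genes and the gene lists were chosen with earlier results of these data known. Named beyond the 6 were up to 4 called genes per pathway list and comparison by lowest p, the 5 genes most like each member, and relatives of Pmp2; some genes that this rule names are not reported here. Chosen after their values were seen were Erbb3, Fabp3, Fabp9, Fabp12 and the single markers of other cells. Positions are from GENCODE M21 on GRCm38, which mm10 names. The procedure was tested on simulated data. Alternatives used DESeq2 1.42.0 and limma 3.58.1, other scalings and filters, the replicate block, and leaving out each library. Figures were drawn with matplotlib 3.10.9.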

Additional observations from a re-analysis of the deposited data

How the results depend on the processing

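In Cisplatin against Normal and in RP against Cisplatin, 5 of the 6 genes were called under RLE scaling, library size alone, no filter, DESeq2, limma-voom, fits of the 2 compared groups, the replicate block and, added after seeing the data, without Rn45s. With a stricter filter, 5 CPM or more in 3 libraries, which Pmp2 did not pass, 4 of 5 were called. Leaving out each library gave 4 to 6 calls in Cisplatin against Normal and 5 to 6 in RP against Cisplatin; the changed calls were those of Pmp22 and Sox10 given above. No called log2 fold change of the 6 genes changed sign in these runs. In RP against Normal, 0 of the 6 genes were called in any of them.

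Replicate numbers recur in the 3 groups. Same-numbered samples correlated at -0.15 to 0.18 in their deviations from group means, so the numbers were not taken as pairs. With the replicate number as a block, RP against Cisplatin gave 5 of the 6 genes and 6292 genes in all (6277 without the block), RP against Normal 0 and 61 (65 without it), and Cisplatin against Normal 5 and 6988 (7012 without it).

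Relative to its size, the number of all genes called in RP against Normal, 65, moved most: 293 with no filter and 229 with DESeq2, and 22 to 116 when 1 library was left out; the cause was not tested. Counts for the further lists under these alternatives were also computed after seeing the data. With the 5 CPM filter, which removes scarce genes, fallers in Cisplatin numbered 1 among regulators and 2 in the non-myelinating list, and risers in RP against Cisplatin 1 in each. Depth limits Pmp2, whose Cisplatin level rests on 2 counts; Sox10 had 8 to 44 counts per library in Cisplatin and 7 to 64 in Normal.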
